A study of Mus musculus with 8 samples.

Results

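The cytosolic ribosomal protein genes are the 89 protein-coding genes, of 21887 in the RefSeq gene table of GRCm38.p6, whose symbols begin with Rpl or Rps and a number, together with Rplp0, Rplp1, Rplp2 and Rpsa and without the S6 kinase genes. The choice used symbols alone and no measured value. Of the 89 genes, 46 encode large subunit proteins and 31 small subunit proteins, 7 encode paralogs of such proteins, 4 are annotated retrogene copies, and Rps19bp1 encodes a protein that binds Rps19. Chromatin immunoprecipitation with sequencing was used to map trimethylated lysine 36 of histone H3 (H3K36me3) in mouse bone marrow stromal cells, the adherent marrow cells that include progenitors of bone and fat. The cells came from C57BL/6J mice, were homozygous for a floxed Setd2 gene (Setd2 fl/fl) and were used at passage 2. KO cells received a lentivirus expressing Cre and WT cells a lentivirus expressing GFP, so both genotypes carried the floxed alleles and a lentivirus, and both were given 4 days of puromycin selection (2 µg/ml) before fixation in 1% formaldehyde for 10 min. Each genotype had 2 H3K36me3 libraries, which the authors compared with the Input library (chromatin before immunoprecipitation) and with the IgG library (an antibody with no histone target) of the same genotype. The quantity given throughout is coverage, the percent of a gene's span that lay under the deposited peaks, and peaks against Input are meant unless IgG is named.

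The ribosome pairs a small subunit, which decodes the messenger RNA, with a large subunit, which joins amino acids. Each is built from ribosomal RNA and the proteins encoded by the subunit genes among the 89. The subunit genes are short, are transcribed at a high rate in nearly every cell, and many hold small nucleolar RNA genes in their introns. H3K36me3 is written by Setd2 as it travels with elongating RNA polymerase II, so the mark normally lies over the bodies of transcribed genes and is low at their starts.

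Over all protein-coding genes, mean coverage was 3.32 ± 0.566% in KO libraries and 25.9 ± 0.596% in WT libraries (SD, n = 2 each). Setd2 itself had 0.69 and 1.70% in the KO libraries, against 66.4 and 60.5% in the WT libraries, which does not measure whether its exons are present. The KO lists held 122589 and 159459 peaks and the WT lists 242745 and 246258. Of the marker genes, all 7 tested stromal genes of 10 listed, 6 of 7 tested haematopoietic genes of 10 and the 1 tested endothelial gene of 5 were lower in KO, beside 92.6% of all tested genes. Mean WT coverage was 37.3 ± 2.11% over the stromal, 28.9 ± 4.97% over the haematopoietic and 6.92 ± 1.64% over the endothelial list. The WT medians were 44.2 and 36.2% over the stromal, 19.9 and 19.5% over the haematopoietic and 7.28 and 2.05% over the endothelial list. Stromal genes ranged from S100a4 and Thy1, at 0 in both WT libraries, to Vim at 82.2 and 92.2%. Haematopoietic genes ranged from Cd3e, at 0 in both, to Lyz2 at 74.9 and 87.6%. Against IgG the WT means were 10.7 ± 1.54% over the stromal, 17.3 ± 3.70% over the haematopoietic and 5.89 ± 1.04% over the endothelial list. The WT medians against IgG were 2.65 and 0.195% over the stromal and 14.9 and 15.3% over the haematopoietic list. The part of other cell types in the results was not tested, and fewer cells with the mark and less of it per cell cannot be told apart in bulk libraries. Whether replicate libraries stem from separate cultures is not stated in the labels, and p-values therefore reflect the spread among these 4 libraries only. In 82 of the 89 ribosomal protein genes both KO libraries were at 0, so that the KO pair added no spread. For such genes the p-values rest on the WT pair and on the spread over all tested genes, and can be too small.

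H3K36me3 peaks were almost gone from the ribosomal protein genes in KO cells, while they covered on average about 50% of the span in WT cells. Mean coverage of the 89 genes was 0.357 and 0.260% in the KO libraries, against 50.2 and 51.0% in the WT libraries. No peak lay on 82 of the 89 genes in either KO library, and no gene had a peak in both. Of the 80 genes whose mean over the 4 libraries reached 10%, 70 fell in KO and none rose at an adjusted p below 0.05 (limma, Benjamini-Hochberg over all 10809 genes tested). That is 87.5% of the tested ribosomal protein genes, beside 92.6% lower and 0.555% higher among all tested genes. At this filter their share of calls was thus not above the background. KO coverage was near 0, so these genes passed the filter mainly through their WT coverage. Without the filter, over genes with a peak in any library, 68 of 87 ribosomal protein genes fell, against 10701 of 18288 genes. With each library scaled to the same mean coverage over all genes, 62 of the 80 fell, 77.5%, beside 45.2% lower among all tested genes. Scaling leaves a coverage of 0 at 0. Of the ribosomal protein genes 92.1% were at 0 in both KO libraries, against 33.1% of all protein-coding genes. The scaled shares therefore cannot show whether the loss was larger on the ribosomal protein genes. The median difference, KO minus WT, was -57.8 percentage points over the tested ribosomal protein genes and -47.7 points over all tested genes. Both KO libraries were below both WT libraries for 78 of the 89 genes, against 54.4% of all protein-coding genes and 94.8% of all tested genes. The 2 WT libraries differed by a median of 9.71 points over the 89 genes and by 1.98 points over all protein-coding genes. The latter include 5612 genes at 0 in both WT libraries. Over the mitochondrial ribosomal protein and initiation factor genes, described below, the medians were 5.94 and 4.90 points.

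**Figure D1:**
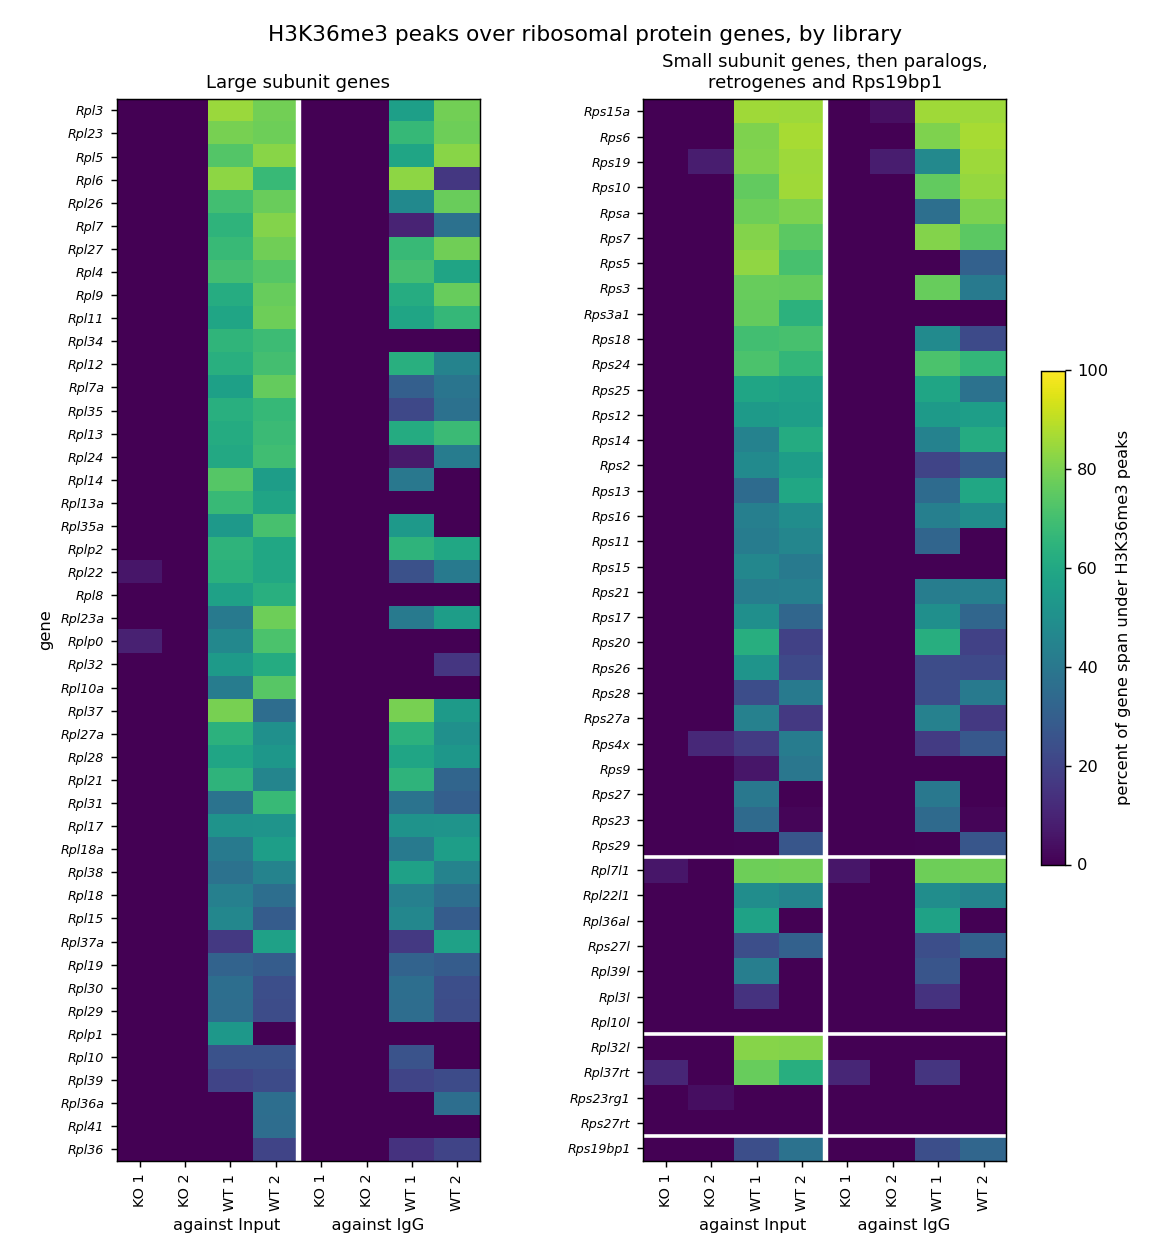
Percent of each gene's span under H3K36me3 peaks in the 4 libraries, with peaks against Input on the left and against IgG on the right of each panel; 1 gene is not shown. KO columns are dark for nearly every gene, while WT columns reach 86.9% (Rps6). Both WT columns are dark for 3 genes against Input and for 14 against IgG.

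The genes with the 10 largest falls were Rps15a, Rps6, Rpl3, Rpl32l, Rps10, Rps19, Rpsa, Rpl23, Rps7 and Rpl5, with differences between -85.6 and -77.8 points. Rps15a (chr7:118104374-118116147) had 0 and 0% in the KO libraries, against 85.9 and 85.4% in the WT libraries, a difference of -85.6 points (SE 1.84, limma adjusted p = 0.000211). Rps6 (chr4:86854099-86857367), the small subunit protein that S6 kinases phosphorylate in response to growth signals, had 0 and 0% in KO, against 80.6 and 86.9% in WT, a difference of -83.8 points (SE 2.96, limma adjusted p = 0.000211). Both genes were free of peaks in KO and covered over most of their span in both WT libraries. Rpl3, a large subunit protein close to the peptidyl transferase centre, had 0 and 0% in KO, against 85.1 and 78.8% in WT. Rpsa, a small subunit protein also known as the laminin receptor precursor, had 0 and 0% in KO, against 77.9 and 80.3% in WT. Rps19, whose human homolog is the gene most often mutated in Diamond-Blackfan anaemia, was the only one of the 10 with a KO peak against Input, at 0 and 7.87% in KO and 81.2 and 85.2% in WT. Single peaks could span most of such a gene: a peak of 8754 bp lay on Rpl5 in WT library 2, and a peak of 6557 bp on Rps7 in WT library 1.

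Large and small subunit genes had similar mean coverage. The 46 large subunit genes averaged 0.165 ± 0.233% in KO and 54.2 ± 2.97% in WT, and the 31 small subunit genes 0.313 ± 0.442% in KO and 52.3 ± 0.264% in WT (SD, n = 2 each). Among large subunit genes 41 of 43 tested fell, 95.3%, and among small subunit genes 23 of 29, 79.3%, beside 92.6% of all tested genes. Of the P stalk genes, whose proteins bring translation factors to the ribosome, Rplp0 had 9.22 and 0% in KO, against 46.5 and 71.6% in WT. Rplp2 had 0 and 0% in KO, against 65.0 and 59.7% in WT, and both genes fell. Rplp1 had 0 and 0% in KO, against 53.3 and 0% in WT, and did not pass (limma adjusted p = 0.267).

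The 10 tested genes that did not pass included Rpl37a, Rplp1, Rps4x, Rps9, Rps20, Rps27, Rps27a, Rpl36al and Rpl39l. In 4 of them, Rplp1, Rps27, Rpl36al and Rpl39l, 1 WT library had no peak at all, so that KO and WT overlapped at 0. Rps20 had 0 and 0% in KO, against 62.8 and 19.3% in WT (limma adjusted p = 0.0783). Rps27a, whose protein is made as a fusion with ubiquitin, had 0 and 0% in KO, against 43.9 and 16.6% in WT (limma adjusted p = 0.0534). Rps4x had 0 and 11.5% in KO, against 17.5 and 41.9% in WT (limma adjusted p = 0.0924). Rpl37a had 0 and 0% in KO, against 16.7 and 57.3% in WT, and Rps9 had 0 and 0% in KO, against 6.05 and 39.7% in WT. In all 10 genes the 2 WT libraries stood far apart, while KO coverage was at 0 in both libraries for all but Rps4x. The mean filter left out 9 genes, Rpl3l, Rpl10l, Rpl36, Rpl36a, Rpl41, Rps23, Rps23rg1, Rps27rt and Rps29. Of these, Rpl41, which encodes a very short basic peptide, had 0 and 0% in KO, against 0 and 35.6% in WT. Rps23 had 0 and 0% in KO, against 34.8 and 1.18% in WT, and Rps29 had 0 and 0% in KO, against 0.614 and 26.8% in WT.

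The homologs of 13 human Diamond-Blackfan anaemia genes, an inherited failure of red cell production, were low in KO as well. These 13 are a chosen list that need not hold every such gene. Their mean coverage was 0.303 ± 0.428% in KO and 58.1 ± 1.85% in WT (SD, n = 2 each). Of this list all 12 that were tested fell, as did 92.6% of all tested genes. Rpl11, whose protein binds Mdm2 together with Rpl5, had 0 and 0% in KO, against 58.8 and 77.8% in WT (limma adjusted p = 0.00179). Rps26 had the highest adjusted p of the 12, with 0 and 0% in KO, against 51.7 and 22.0% in WT (limma adjusted p = 0.0391). Rps29 was the gene of this list below the filter. In every one of the 13 genes both KO libraries were below both WT libraries, as in 54.4% of all protein-coding genes and 94.8% of all tested genes.

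The 4 subunit genes on the X chromosome, Rpl10, Rpl36a, Rpl39 and Rps4x, had lower WT coverage than the 73 on autosomes. Their mean was 1.44 ± 2.04% in KO and 23.7 ± 11.1% in WT, against 0.158 ± 0.0705% in KO and 55.1 ± 1.15% in WT for the autosomal genes (SD, n = 2 each). Over all 966 X-linked protein-coding genes the mean was 2.74 ± 0.623% in KO and 8.93 ± 0.303% in WT. Rpl10 had 0 and 0% in KO, against 25.2 and 25.3% in WT, and Rpl36a had 0 and 0% in KO, against 0 and 36.2% in WT. None of the 4 reached 50% in either WT library, and the difference between X-linked and autosomal genes was not tested.

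Subunit genes that hold annotated small nucleolar RNA genes within their spans had 0% in both KO libraries and 57.4 and 57.7% in the WT libraries (30 genes). The 47 without such a gene had 0.322 and 0.413% in KO and 48.9 and 52.7% in WT. Of the tested genes, 28 of 30 hosts fell, 93.3%, and 36 of 42 others, 85.7%, beside 92.6% of all tested genes.

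WT coverage of the paralogs lay below that of the partner gene in some pairs and near or above it in others, and none of the tested paralogs rose in KO. Rpl3l, known from striated muscle, had 0 and 0% in KO, against 14.5 and 0% in WT, well below the 85.1 and 78.8% of Rpl3 in the WT libraries. Rpl10l, known from testis, had no peak in any library. Rpl7l1 had 6.03 and 0% in KO, against 78.0 and 78.3% in WT (limma adjusted p = 0.000214), near Rpl7 with 0 and 0% in KO and 65.2 and 81.5% in WT. Rpl22l1 had 0 and 0% in KO, against 49.1 and 45.2% in WT, and Rpl22 had 5.93 and 0% in KO, against 63.9 and 59.9% in WT. Both of these genes fell, as did Rps27l, with 0 and 0% in KO and 24.1 and 30.9% in WT, while Rps27 had 0 and 0% in KO and 40.0 and 0% in WT. Rpl39l, known from testis, had 0 and 0% in KO, against 42.8 and 0% in WT, and Rpl39 had 0 and 0% in KO, against 20.7 and 22.9% in WT. Rpl36al, with 57.5 and 0% in the WT libraries, and Rpl36a, with 0 and 36.2%, each had a peak in a different WT library.

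**Figure D2:**
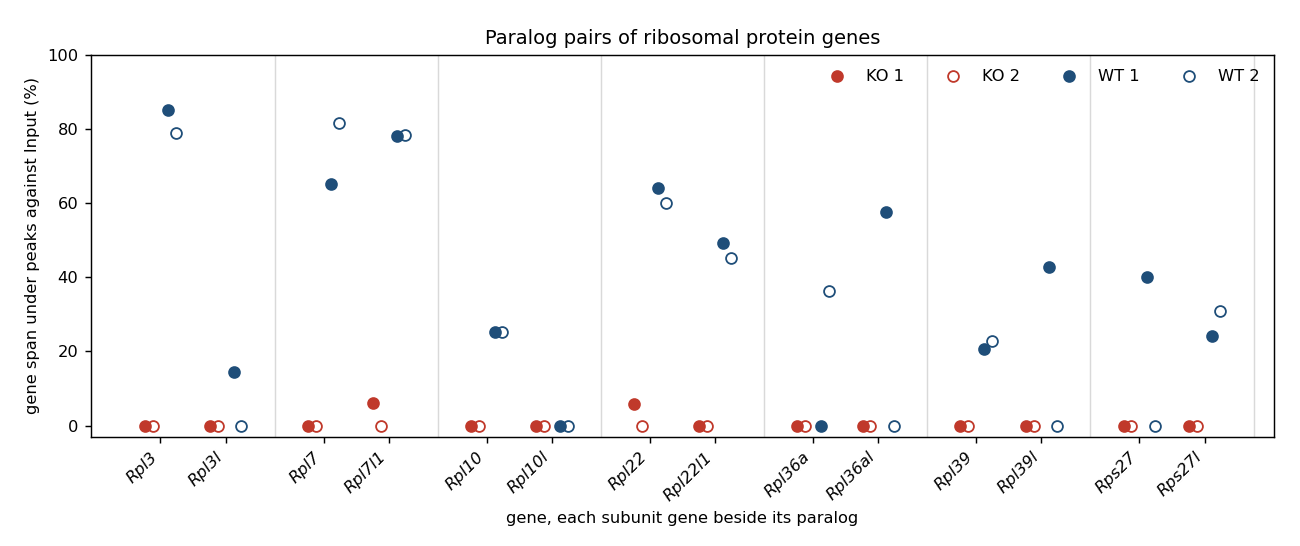
Percent of span under peaks against Input for each subunit gene beside its paralog, with 1 point per library. Rpl7l1 sits near Rpl7 in WT, Rpl10l is at 0 in all 4 libraries, and KO points stay at or below 6.03%.

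Of the 4 retrogene copies, 2 had high WT coverage and 2 had none. Rpl32l, a span of 592 bp that lies whole inside Map7, had 0 and 0% in KO, against 81.9 and 81.4% in WT, while Map7 over its whole span had 3.78 and 7.64% in KO and 6.50 and 5.75% in WT. Rpl37rt had 10.6 and 0% in KO, against 76.7 and 62.8% in WT. Rps27rt had no peak in any library, and Rps23rg1 had 0 and 3.78% in KO and 0 and 0% in WT. Retrogene copies resemble the spliced transcripts of their parents, so the authors' alignment could have placed reads of a parent there, and the handling of reads with several matches is not stated. The part of such reads in the peaks was not tested. The same holds for the 318 annotated pseudogenes named for ribosomal protein genes, which averaged 6.67 and 7.58% in the KO libraries and 13.2 and 11.8% in the WT libraries. The 73 pseudogenes inside a protein-coding gene had 6.83 and 8.51% in KO, against 38.2 and 34.5% in WT. The 187 at least 10 kb from any protein-coding gene had 7.01 and 7.65% in KO, against 5.14 and 4.50% in WT, so that the KO means were not below the WT means. Among functional genes that share bases with a neighbour, 47.2% of Rpl18 lies in Sphk2 and 18.5% of Rpl35a in Iqcg, and a peak there belongs to both spans.

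The 7 genes with a peak in a KO library were Rpl22, Rpl37rt, Rplp0 and Rpl7l1 in KO library 1 and Rps19, Rps23rg1 and Rps4x in KO library 2, each with 1 peak of 393 to 780 bp. The 5 with the highest KO coverage were Rps4x, Rpl37rt, Rplp0, Rps19 and Rpl7l1. A KO peak was present on 7.87% of the ribosomal protein genes, against 66.9% of all protein-coding genes. Ribosomal protein genes are short, with a median span of 3183 bp against 17169 bp over all protein-coding genes. By length, a KO peak lay on 0 of 15 ribosomal protein genes under 2 kb, against 16.5% of all protein-coding genes of that length, and on 0 of 24 of 2 to 3 kb, against 18.9%. From 3 to 5 kb it lay on 2 of 34, which is 5.88% against 27.6%, and from 5 to 10 kb on 4 of 14, which is 28.6% against 45.8%. The share was lower for the ribosomal protein genes in each of these 4 classes. No test was made of these shares, since genes are not replicates.

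Up to 10 kb, WT coverage was higher in longer genes. The ribosomal protein genes averaged 35.98 and 26.0% in the WT libraries under 2 kb, 41.8 and 50.2% from 2 to 3 kb, 56.9 and 58.5% from 3 to 5 kb and 64.9 and 62.4% from 5 to 10 kb. All protein-coding genes averaged 5.08 and 5.18%, 15.1 and 15.0%, 21.2 and 20.7%, and 28.6 and 27.6% in the same classes. The 2 ribosomal protein genes of 10 to 20 kb averaged 43.0 and 42.7%, and over all protein-coding genes the means were 35.3 and 34.1% from 10 to 20 kb and 29.4 and 28.3% above 20 kb. Across the 77 subunit genes, Spearman's rho between span and coverage was 0.54 in WT library 1 and 0.51 in WT library 2. This is a description, since the genes share a library. At least 50% of the span was covered in both WT libraries for 42 of the 89 genes, 47.2%, against 22.3% of all protein-coding genes, and in both KO libraries for none of the 89.

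**Figure D3:**
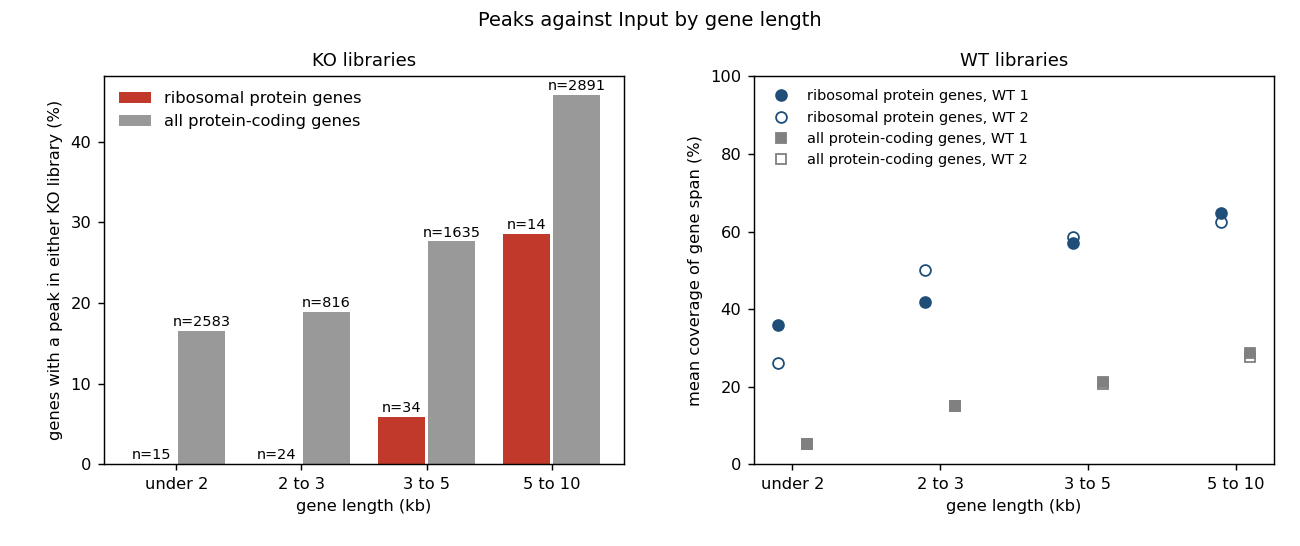
Left, percent of genes with a peak in either KO library by gene length, with the number of genes above each bar; right, mean coverage in each WT library. In KO the ribosomal protein genes are at 0% below 3 kb and at 28.6% from 5 to 10 kb, and in WT they lie above all protein-coding genes in each class.

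The order of the mark along the genes was examined in the 69 genes whose strand was known. In the first 5% of the span, peaks covered 0 and 0% of bases in the KO libraries, against 4.14 and 5.45% in the WT libraries. Between 85 and 90% of the span they covered 1.25 and 1.74% in KO, against 85.8 and 85.0% in WT. By distance from the start, WT coverage was 7.03 and 7.57% at 250 to 500 bp, 32.8 and 32.8% at 750 to 1000 bp and 50.5 and 45.9% at 1000 to 1250 bp, and KO coverage in those steps was at most 0.40%. WT coverage reached 83.3 and 80.9% at 3000 to 3250 bp, in the 36 genes long enough to hold that step.

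Other genes of 2 to 10 kb with a peak in both WT libraries had lower WT coverage at the same distances from the start. Over these 2072 genes coverage was 0.74 and 0.61% in KO and 8.58 and 8.80% in WT at 750 to 1000 bp, and 0.64 and 0.86% in KO and 14.9 and 14.3% in WT at 1000 to 1250 bp. With both sets held to spans of 3 to 5 kb, the 26 ribosomal protein genes had a WT mean of 31.7% at 750 to 1000 bp and 89.4% at 2750 to 3000 bp, against 11.9% and 70.2% in 562 other genes with a peak in both WT libraries. The difference between the sets was not tested, and the members' higher WT peak scores are seen in the same libraries.

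**Figure D4:**
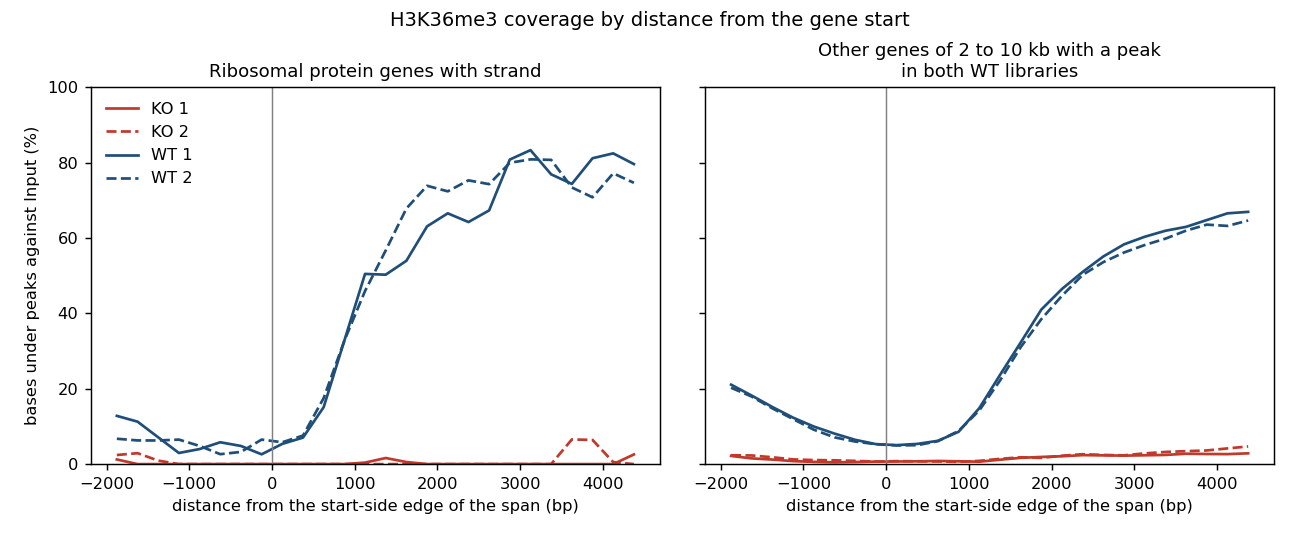
Percent of bases under peaks against Input in steps of 250 bp from the start-side edge of the gene span, for 69 ribosomal protein genes (left) and 2072 other genes (right), with 1 line per library. KO lines stay near 0, and the WT lines pass 50.5 and 45.9% by 1250 bp on the left and 14.9 and 14.3% on the right.

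The region around the start held few peaks in either genotype. In windows from 250 bases before to 50 bases after the RefSeq start, a peak met 0 and 0 of 69 ribosomal protein genes in the KO libraries, and 2 and 4 of 69 in the WT libraries. Over 17492 protein-coding genes with such a window the share was 1.93 and 2.29% in KO and 2.68 and 2.65% in WT, so counts this small over 69 genes lie near it. The promoters were also searched for 2 motifs known from ribosomal protein genes. The first was CGGAAGT on either strand, a core to which ETS factors such as Gabpa bind, from 100 bases before to 50 after the start. It was present in 19 of 69 windows, 27.5%, against 6.88% of 17492 protein-coding genes. The second was a C followed by at least 5 pyrimidines on the coding strand within 30 bases of the start, as in the terminal oligopyrimidine tract at which such transcripts begin, present in 47 of 69, 68.1%, against 38.8%. A match is a description of the letters and says nothing of binding.

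The following windows, from 70 bases before to 25 after the start in GRCm38.p6 (RefSeq), show the ETS core in capitals, on either strand, in genes of both outcomes. Rps6 (chr4:86857343-86857437, minus strand), Rps7 (chr12:28635929-28636023, minus) and Rpsa (chr9:120127696-120127790, plus) were among the 10 largest falls, Rpl37a (chr1:72711190-72711284, plus) did not pass, Rpl41 (chr10:128549144-128549238, minus) was below the filter, and Rps15a (chr7:118116123-118116217, minus), with the largest fall, has no match in the printed window.
Rps6: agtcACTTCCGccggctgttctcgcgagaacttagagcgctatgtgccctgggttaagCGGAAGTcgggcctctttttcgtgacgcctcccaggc
Rps7: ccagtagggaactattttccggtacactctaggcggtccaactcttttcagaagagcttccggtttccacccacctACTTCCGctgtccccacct
Rpsa: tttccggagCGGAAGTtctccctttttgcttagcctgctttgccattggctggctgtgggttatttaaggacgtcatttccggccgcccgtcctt
Rpl37a: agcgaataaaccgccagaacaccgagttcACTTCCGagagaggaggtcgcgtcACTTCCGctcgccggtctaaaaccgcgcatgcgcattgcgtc
Rpl41: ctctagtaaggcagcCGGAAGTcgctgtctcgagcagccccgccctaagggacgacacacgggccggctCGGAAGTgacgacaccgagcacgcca
Rps15a: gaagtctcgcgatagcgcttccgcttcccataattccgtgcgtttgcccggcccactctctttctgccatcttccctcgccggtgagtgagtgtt
Rps6, Rpl37a and Rpl41 each hold 2 copies of the core. Of these, Rps6 fell, Rpl37a did not pass and Rpl41 was not tested, and none of them had a peak in either KO library.

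The WT peaks on ribosomal protein genes carried higher scores than peaks on genes in general. The score is the authors' own value per peak and its scale is not stated. Its median over peaks that meet the 89 genes was 43.8 and 49.2 in the KO libraries, over 4 and 3 peaks, and 107 and 110 in the WT libraries, over 145 and 146 peaks. Over peaks that meet any protein-coding gene it was 43.9 and 34.7 in KO and 40.0 and 40.4 in WT.

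Peaks against IgG gave lower coverage of the ribosomal protein genes in both genotypes. Mean coverage was 0.187 and 0.136% in KO, against 36.6 and 35.2% in WT. At the mean filter 63 genes were tested, of which 53 fell, none rose and 10 did not pass (limma, adjusted p below 0.05). That is 84.1%, beside 91.4% lower and 0.218% higher among all 9635 tested genes, again not above the background at this filter. Without the filter 52 of 75 ribosomal protein genes fell, against 9770 of 17393 genes. With a mean filter of 25% in place of 10%, fewer genes were tested. All 27 ribosomal protein genes tested then fell, beside 4049 of 4138 genes. With KO coverage this low, they passed that filter only through high WT coverage, so their fall was largely set by the filter. Both KO libraries were below both WT libraries for 63 of the 89 genes, against 52.5% of all protein-coding genes and 95.7% of the tested genes. A KO peak against IgG lay on 4 genes, Rpl37rt, Rpl7l1, Rps19 and Rps15a, and the last of these had no KO peak against Input. The immunoprecipitated reads are the same in both sets of lists, so one is no independent support for the other.

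Several genes with wide WT peaks against Input had none against IgG. Of the 42 genes covered over at least 50% against Input in both WT libraries, 5 were at 0 in both WT libraries against IgG, namely Rps3a1, Rpl34, Rpl13a, Rpl8 and Rpl32l. That is 11.9%, against 58 of 4880 protein-coding genes, 1.19%, and from 2 to 10 kb it was 10.3% of 39 genes, against 4.06% of 1010. Rpl34 had 0 and 0% in KO, against 65.4 and 68.7% in WT with peaks against Input, and 0% in all 4 libraries with peaks against IgG. Rpl13a, whose introns hold small nucleolar RNA genes, had 0 and 0% in KO, against 67.5 and 58.2% in WT with peaks against Input, and likewise 0% in all 4 libraries against IgG. The 5 largest gaps in WT between the control libraries were those of Rpl32l, Rps3a1, Rpl34, Rpl13a and Rpl37rt, of 81.7 to 61.9 points. Other genes were the same against either control, such as Rps6 and Rps7, whose WT values did not change. Rpl36, Rpl37 and Rpl38 had higher WT means against IgG, at 17.6, 67.0 and 50.9%, than against Input, at 10.3, 57.7 and 41.3%. The WT lists against IgG retained 73.8 and 68.5% of the Input peaks on ribosomal protein genes, against 80.4 and 81.9% of those on all protein-coding genes. The signal of the IgG library is not in the lists, so its part in these gaps was not tested.

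**Figure D5:**
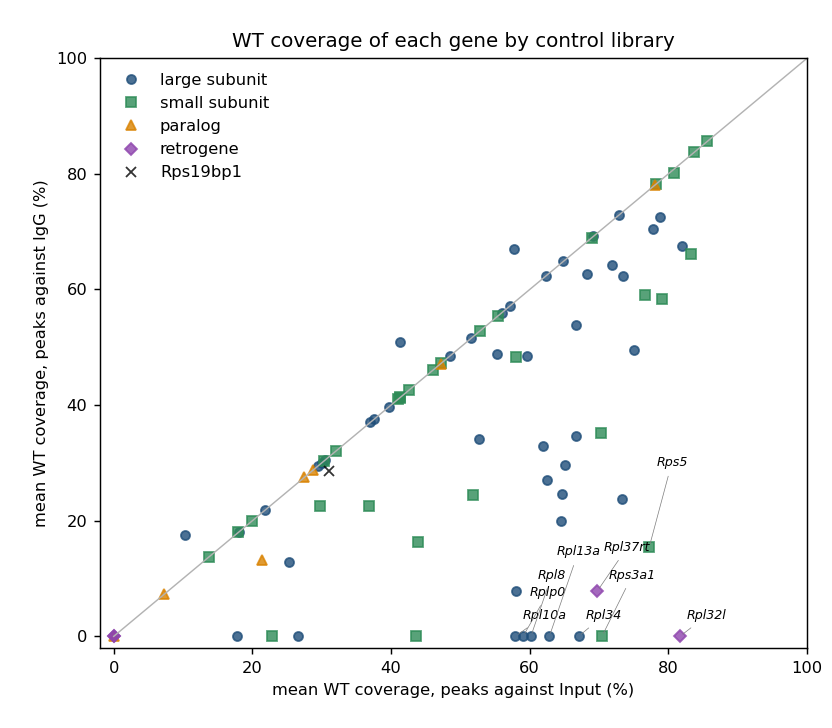
Mean coverage of each ribosomal protein gene over the 2 WT libraries with peaks against Input (horizontal, percent) and against IgG (vertical, percent), with the diagonal marking equal values. Rps15a, Rps6 and Rps7 lie on the diagonal near its upper end, and Rps3a1, Rpl34, Rpl13a, Rpl8 and Rpl32l lie at 0 on the vertical axis.

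Genes of the same pathway fell alongside. Of the ribosomal proteins with other names, Rack1 fell, at 0 and 0% in KO, against 80.1 and 71.2% in WT, as did Fau, at 0 and 0% in KO, against 60.2 and 65.3% in WT. All 6 elongation factor genes fell, among them Eef1a1 at 31.3 and 0% in KO, against 71.4 and 75.2% in WT, and Eef1g at 0 and 0% in KO, against 81.7 and 79.9% in WT. Of the ribosome assembly genes 28 of 30 were tested and all 28 fell, including Nol6 and Utp20 of the small subunit processome and, with the smallest fall, Dkc1, the pseudouridine synthase, at 9.91 and 4.27% in KO, against 41.2 and 35.9% in WT. All 10 RNA polymerase I genes fell. All 6 genes of a list drawn up for the control of oligopyrimidine transcripts, S6 kinase genes included, fell too. Among them Mtor had 3.89 and 3.58% in KO, against 83.1 and 79.9% in WT. The part of each listed gene in that control was not tested. Each of these shares stands beside the 92.6% of all tested genes.

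Mitochondrial ribosomal protein genes and initiation factor genes were the lists closest in function. The 78 mitochondrial genes had 1.96 ± 0.0279% in KO and 50.4 ± 1.45% in WT, and 69 of 70 tested fell. The 56 initiation factor genes had 1.63 ± 0.553% in KO and 60.3 ± 0.140% in WT, and all 52 tested fell, beside 92.6% of all tested genes for both lists. A KO peak lay on 34 of the 78 and 31 of the 56, against 7 of the 89 cytosolic ribosomal protein genes. From 5 to 10 kb it lay on 12 of 30 mitochondrial ribosomal protein genes and on 0 of 10 initiation factor genes, against 4 of 14 cytosolic ribosomal protein genes. None of the 40 mitochondrial ribosomal protein genes and 1 of the 38 initiation factor genes covered over at least 50% in both WT libraries was at 0 against IgG in both. Of the elongation factor genes so covered it was 2 of 5, Eef1a1 and Eef2, and of the stromal marker genes Vim and Col1a1 were also at 0 in both, so such a loss was not limited to ribosomal protein genes.

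Inside the ribosomal protein gene spans, 170 regions lay under peaks of both WT libraries, and 8 of them met a KO peak by at least 1 bp. That is 4.71%, against 16.9% of 193363 regions over all protein-coding genes.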

How the data were processed

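The submitters' processing notes name Bowtie2 and GRCm38. Their version, the peak caller's settings and the placing of multiply matching reads are not stated. The authors deposited 8 peak lists, each for 1 H3K36me3 library against the Input or IgG library of its genotype, with a score per peak whose scale is not stated; both libraries of a genotype share those controls. The lists hold no read counts, so depth is unknown, a deeper library would give more peaks, and no upper limit can be set for a gene with no peak. Groups came from sample titles.

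Coverage is the percent of a RefSeq GRCm38.p6 gene span under peaks. Strand came from the RefSeq promoter table, in which 69 of 89 members matched. KO was compared with WT in limma 3.58.1 (R 4.3.3, lmFit, eBayes with trend and robust, statmod 1.5.0) on percent, over genes whose mean reached 10%. P-values were adjusted by Benjamini-Hochberg over all tested genes, and calls were made below 0.05. The fit was checked on simulated coverage. An exact permutation test of 2 against 2 libraries cannot go below p = 0.333 and was not used. Summaries used Python 3.11.15, numpy 2.4.6, pandas 2.3.3 and matplotlib 3.10.9.

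The members and lists were chosen with earlier results of these data known. Genes named were Setd2, the 10 largest falls, members that did not pass or were below the filter, the 5 with the highest KO coverage, the 5 with the largest gap between Input and IgG lists, paralog pairs, P stalk genes, homologs of Diamond-Blackfan genes, and up to 2 genes from each end of other lists. Other members, other genes of the marker lists and the genes sharing bases with members were chosen after values were seen. Rpl8, Eef2, Cd3e, S100a4, Thy1 and Lyz2 are among them. The motifs were chosen after values were seen as well. Some genes that the rule names are not reported here. Alternatives were peak scores, filters, scaling, moderation, the arcsine scale, merged peaks, a replicate block, the control library and each replicate left out.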

Additional observations from a re-analysis of the deposited data

How the results depend on the processing

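Against Input, 70 ribosomal protein genes fell, 50 to 74 under other settings with Input as the control and 57 to 76 with 1 library left out (the lone library of a genotype is then assumed to vary like the other pair), and 56 of the 70 stayed past the threshold in all 4 of those fits. Against IgG, 53 fell, 37 to 63 with 1 library left out, and 27 with the filter at 25%, under which fewer genes are tested. Over all genes, the count lower in KO was 10013 against Input, 5883 with the 25% filter, 4890 with scaling to equal mean coverage and 8575 to 9311 with 1 library left out. Against IgG it was 8806, with 4049, 3772 and 7455 to 8086 under the same settings. With the 25% filter every ribosomal protein gene tested fell, 50 of 50 against Input and 27 of 27 against IgG. The counts over all genes were then 5883 of 5964 and 4049 of 4138. With KO coverage near 0, ribosomal protein genes passed this filter only through high WT coverage. Their fall was thus largely set by the filter and is no support for the calls. With scaling, 62 of 80 ribosomal protein genes fell against Input and 45 of 63 against IgG. No ribosomal protein gene changed direction with a call under any setting run. In both KO libraries 82 of the 89 genes were at 0 against Input and 85 against IgG. For those genes a rise was hardly possible.

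Mean KO coverage of the 89 genes was 0.309%, 0.117% with only peaks at or above their list's median score, 0.162% against IgG and 0.260 to 0.357% in single libraries. Mean WT coverage was 50.6%, 43.8% with those scores, 54.2% with peaks within 1 kb merged, 35.9% against IgG and 50.2 to 51.0% in single libraries. For large subunit genes the same WT settings gave 47.7%, 57.8%, 37.2% and 52.1 to 56.3%, and for small subunit genes 46.7%, 55.6%, 40.2% and 52.2 to 52.5%. Genes covered over at least 50% in both WT libraries numbered 42, but 20 against IgG and 48 to 52 by single libraries. The share of WT regions meeting a KO peak was 1.18% (2 of 170) when at least 50% of the region had to overlap. With the higher scores it was 0.758% (1 of 132). Over all protein-coding genes these shares were 8.60% and 10.4%. Pseudogenes far from protein-coding genes had a WT mean of 4.82%, against 12.5% for all. The causes were not tested.

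Same-numbered KO and WT libraries did not deviate together (correlations of -0.0033 over 10809 genes against Input and -0.0131 over 9635 against IgG). KO coverage was low, with a mean of 3.32% over all protein-coding genes, which leaves little deviation to correlate. Whether the numbers pair the libraries thus cannot be told. With the replicate number as a block, 73 genes fell against Input and 55 against IgG. Unknown depth limits all levels.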
